A study of Mus musculus with 12 samples.

Results

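The hydrolases of the intestinal brush border were described in mouse jejunum with and without a knockout of Fzd5. The group was chosen by symbol and holds 9 of the 55421 genes in the expression table, all of which were found. They are 4 carbohydrases (Sis, Mgam, Lct and Treh), 1 phosphatase (Alpi) and 4 peptidases (Anpep, Enpep, Dpp4 and Ace).

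The absorptive cells of the small intestine carry a dense layer of microvilli, the brush border, whose membrane holds enzymes with their active sites facing the lumen. Carbohydrases split disaccharides and short starch fragments into single sugars, and peptidases trim peptides to amino acids and short peptides, which transporters of the same membrane take up. The enzymes are made as enterocytes leave the crypt and are most abundant in cells of the villus, and lactase is known for its loss after weaning in most mammals.

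Total RNA of intestinal epithelial cells from the jejunum was sequenced in bulk. There were 4 groups of 3 libraries: Fzd5KO day 1, Ctrl day 1, Fzd5KO day 3 and Ctrl day 3. Fzd5 encodes Frizzled 5, a receptor for Wnt ligands at the cell surface. The labels name no strain, age, Cre driver or inducing agent, the event that starts the count of days is not stated, and any allele that Ctrl may share with Fzd5KO is not named. Separate animals are not stated for the replicates either, so a p-value here speaks of the spread among these libraries, possibly a technical one. Levels are given in TPM (transcript abundance corrected for length, on a total that is fixed for each library), so levels of different genes can be compared but sequencing depth is unknown. Changes are differences of log2(TPM + 1) ± SE, with limma's moderated test and Benjamini-Hochberg adjustment over the 14510 genes tested. A gene was called when its adjusted p was under 0.05.

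Fzd5 averaged 32.7 ± 0.694 TPM in Fzd5KO day 1 libraries and 46.6 ± 2.94 TPM in Ctrl day 1 libraries, and 38.6 ± 0.969 TPM in Fzd5KO day 3 libraries and 64.8 ± 3.95 TPM in Ctrl day 3 libraries (SD, n = 3 each). The log2 change was −0.50 on day 1 (adjusted p = 0.000151) and −0.73 on day 3 (adjusted p = 4.42e-07), so Fzd5KO libraries held less Fzd5 RNA than Ctrl on each day but still a measurable level. Each library listed 21506 to 24467 genes above 0. Epithelial genes were abundant, with summed levels of Epcam, Cdh1, Krt8, Krt18, Krt19 and Cldn7 between 3908 and 5587 TPM, whereas 6 endothelial markers summed to 1.79 to 3.18 TPM. The Ctrl day 3 libraries stood apart from the other 3 groups in genes of the circadian clock, chosen after their values were seen. Nr1d1, a clock repressor, averaged 17.9 TPM in Fzd5KO day 3 and 0.737 TPM in Ctrl day 3, against 12.4 TPM in Fzd5KO day 1 and 21.2 TPM in Ctrl day 1. Arntl, an activator of the clock, averaged 6.90 TPM in Fzd5KO day 3 and 24.9 TPM in Ctrl day 3, against 7.04 TPM in Fzd5KO day 1 and 7.24 TPM in Ctrl day 1. The part of this difference in the day 3 results was not tested, so the day 3 values are also given against Ctrl day 1 below.

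The promoters of Sis, Alpi and Lct are shown because these 3 genes differed in how they moved in the deposited TPM: Sis changed on both days, Alpi passed the test between genotypes on day 3 only, and Lct did so on day 1 only. Sequences are from RefSeq (GRCm38.p6, the assembly of mm10) and run from 250 bases before to 50 bases after the annotated start, which is the whole window that was searched. Capitals mark matches, on either strand, to TTTAT (bound by CDX factors) and AGATA or TGATA (bound by GATA factors). The Sis window is chr3:72967814-72968113, the Alpi window chr1:87101557-87101856 and the Lct window chr1:128328269-128328568, all on the minus strand.
Sis: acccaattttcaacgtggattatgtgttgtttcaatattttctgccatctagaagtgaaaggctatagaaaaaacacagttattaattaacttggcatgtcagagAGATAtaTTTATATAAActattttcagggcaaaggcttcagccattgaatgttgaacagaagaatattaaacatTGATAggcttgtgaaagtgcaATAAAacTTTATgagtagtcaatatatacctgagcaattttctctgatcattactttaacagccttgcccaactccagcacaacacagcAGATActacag
Alpi: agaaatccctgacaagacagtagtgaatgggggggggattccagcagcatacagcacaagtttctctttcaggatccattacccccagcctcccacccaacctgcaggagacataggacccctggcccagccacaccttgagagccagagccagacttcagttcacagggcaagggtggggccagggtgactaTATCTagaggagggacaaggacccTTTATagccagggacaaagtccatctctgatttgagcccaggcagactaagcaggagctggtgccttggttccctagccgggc
Lct: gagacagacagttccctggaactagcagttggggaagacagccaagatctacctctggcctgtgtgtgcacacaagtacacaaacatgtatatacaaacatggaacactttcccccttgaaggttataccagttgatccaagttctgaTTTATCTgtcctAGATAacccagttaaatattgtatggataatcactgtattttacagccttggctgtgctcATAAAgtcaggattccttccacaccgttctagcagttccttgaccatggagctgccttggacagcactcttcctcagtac
In the Sis window GATA matches begin at positions −145, −71 and 40 from the start, and CDX matches begin at −138, −133, −50 and −43. In Alpi there is a GATA match at −57 and a CDX match at −33. The Alpi match at −33 and the Sis matches at −138 and −133 lie within TATAAA, read on either strand and described below. In Lct a CDX match at −102 and a GATA match at −100 overlap, and others lie at −90 (GATA) and −30 (CDX).

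All 9 members matched a RefSeq promoter, Ace with 2, of which the upstream one was used. TTTAT was present in 7 of 9 members and in 40.0% of the 32851 promoters of the table. AGATA or TGATA was present in 5 of 9 members and in 43.8% of all promoters. TATAAA, the core of the TATA box, was searched after the other results were seen, and its reverse complement contains TTTAT. It was present in 6 of 9 members and in 13.6% of all promoters, and the members without it were Lct, Treh and Anpep. Matches were counted at any position of the window and on either strand, so the count is not one of TATA boxes. They began at −33 in Alpi, −31 in Ace and −30 and 37 in Mgam. In Enpep they began at −52 and −1, in Sis at −138 and −134, and in Dpp4 at −227. In Alpi, Dpp4, Enpep and Ace each TTTAT match lies within a TATAAA match, so the counts of both strings overlap. Only Sis, Lct and Mgam hold a TTTAT match outside TATAAA. These matches are descriptions of short letter strings, and the windows of Treh and Anpep held none of the strings searched. The RefSeq start of Anpep lies inside the gene as annotated here.

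On day 3, the hydrolases were higher in Fzd5KO than in Ctrl: 8 of 9 rose, 0 fell, and Lct did not pass the test. In the deposited TPM 24.3% of tested genes were called higher and 38.5% lower, a split that depended on scaling, as given below. The median log2 change was 1.04 over the 9 members and −0.14 over all tested genes. On day 1 the picture was the opposite and smaller: 0 members rose, 7 fell and Treh and Alpi did not pass the test. On that day 2.13% of tested genes were called higher and 22.8% lower, and the median log2 change was −0.31 over the members and −0.14 over all tested genes. The plot of levels by library shows both patterns.

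**Figure D1:**
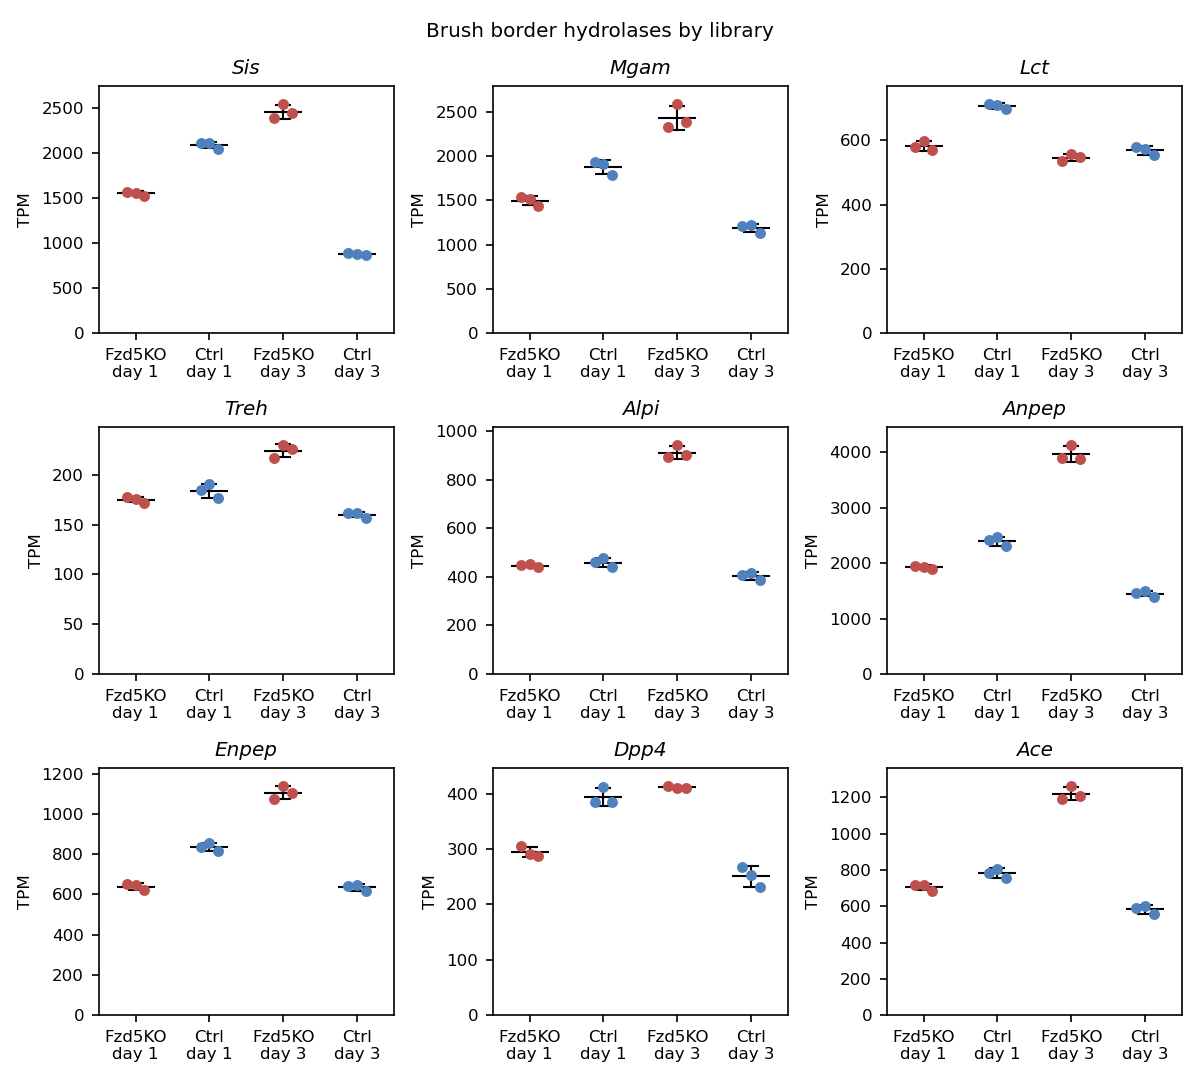
TPM of each hydrolase in the 12 libraries (points), with the mean (long bar) and SD (capped bar) of the 3 libraries of each group; each vertical axis starts at 0. Fzd5KO day 3 libraries lie above Ctrl day 3 libraries for every gene but Lct, where the ranges overlap, and Fzd5KO day 1 libraries lie below Ctrl day 1 libraries for every gene but Treh and Alpi.

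Day 1 depended on how libraries were scaled, and day 3 much less. Quantile normalization gives every library 1 common distribution, median-of-ratios scaling divides each library by its median ratio to the mean library, and rescaled TPM scales to the genes that remain after mitochondrial, predicted, small RNA and the 20 most abundant ones are set aside. Epithelial scaling, added after the values were seen, divides by the 6 epithelial genes named above. Between genotypes 5 of these genes rose and 1 fell on day 3 (median log2 change 0.31), and 2 rose and 1 fell on day 1 (−0.065). Over time 5 rose and 1 fell in the knockout (0.44), and 4 rose and 0 fell in Ctrl (0.13). Values under this scaling are therefore relative to genes that moved themselves. With it the day 3 median of all tested genes went from −0.14 to −0.32. On day 1 the median of all tested genes moved to −0.0004, −0.0019 and −0.051 with quantile, median-of-ratios and rescaled values. The members' median was then −0.051, −0.15 and −0.21, and 3, 6 and 6 members were called lower, with Treh and Alpi called higher under median-of-ratios scaling. The day 1 direction turned for Treh, Alpi and Ace under 2 or more of those scalings, as the plot of changes under 5 scalings shows. The whole-table split on day 1, 309 genes higher and 3313 lower as deposited, became 851 and 920 by quantile normalization, 1236 and 928 by median-of-ratios scaling, and 683 and 1304 in rescaled values. With epithelial scaling it was 372 and 3024, and 7 members were called lower. On day 3 the split of 3529 higher and 5584 lower became 4530 and 4270 with median-of-ratios scaling and 2442 and 7759 with epithelial scaling, and 8 members were called higher under every scaling but median-of-ratios, where 9 were.

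**Figure D2:**
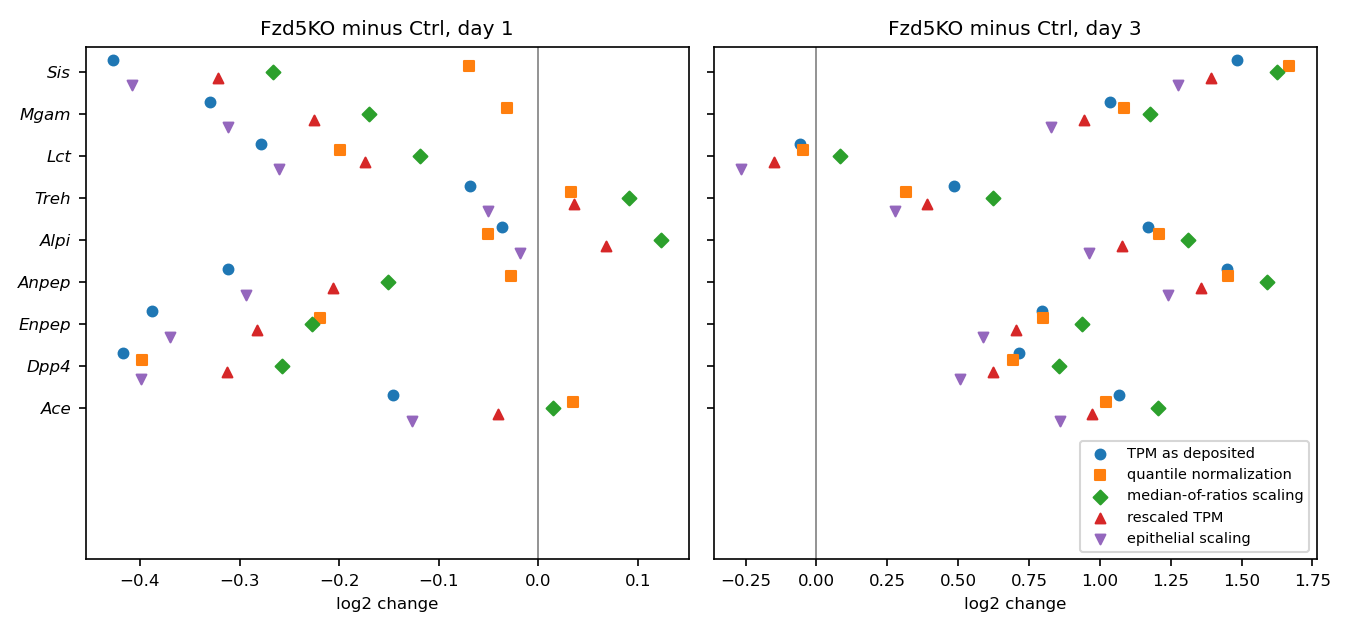
Log2 change of each hydrolase, Fzd5KO minus Ctrl, on day 1 (left) and day 3 (right) for the deposited TPM and 4 other scalings of the same libraries; the line marks 0 and the horizontal axes differ. On day 1 Treh, Alpi and Ace lie on both sides of 0, while on day 3 Lct does and the other 8 genes lie above 0 under all 5 scalings.

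Sis, on chromosome 3 (mm10, 72888557 to 72967863, minus strand), encodes sucrase-isomaltase, which splits sucrose and the branch points of starch. It stood at 1571, 1558 and 1526 TPM in the Fzd5KO day 1 libraries and at 2108, 2105 and 2044 TPM in the Ctrl day 1 libraries. In the Fzd5KO day 3 libraries it stood at 2387, 2539 and 2445 TPM, and in the Ctrl day 3 libraries at 892, 875 and 865 TPM. No 2 groups overlapped, and the order was Fzd5KO day 3, Ctrl day 1, Fzd5KO day 1, Ctrl day 3, from high to low. Between genotypes the mean was 0.744-fold on day 1 (log2 change −0.43 ± 0.030, adjusted p = 7e-06) and 2.80-fold on day 3 (1.48, adjusted p = 3.78e-11). The day 1 call was lost with quantile normalization (adjusted p = 0.283).

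Mgam, on chromosome 6 (40628831 to 40769123, plus strand), encodes maltase-glucoamylase, the relative of sucrase-isomaltase that releases glucose from the ends of starch fragments. Its levels were 1534, 1516 and 1436 TPM in Fzd5KO day 1 and 1939, 1914 and 1788 TPM in Ctrl day 1. On day 3 they were 2332, 2587 and 2383 TPM in Fzd5KO and 1208, 1218 and 1131 TPM in Ctrl. The 4 groups took the same order as for Sis, without overlap, and the fold between genotypes was 0.795 on day 1 (adjusted p = 0.00106) and 2.05 on day 3 (adjusted p = 1.04e-08). The call on day 1 was lost with quantile normalization (adjusted p = 0.777). A related pseudogene, Mgam2-ps, was listed at 80.95 to 122.8 TPM, so a small part of reads may be divided between the copies.

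Sis and Mgam stood nearly level in 3 groups and apart in the fourth. The ratio of Sis to Mgam within a library was 1.02, 1.03 and 1.06 in Fzd5KO day 1 and 1.09, 1.10 and 1.14 in Ctrl day 1. It was 1.02, 0.981 and 1.03 in Fzd5KO day 3, against 0.738, 0.719 and 0.764 in Ctrl day 3. Dividing a library by a factor leaves such ratios unchanged, and all 3 Ctrl day 3 libraries lay below the other 9.

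Lct, on chromosome 1 (128284756 to 128328318, minus strand), encodes lactase, which splits milk sugar. It was at 580.1, 598 and 569 TPM in Fzd5KO day 1 and at 712, 710.15 and 697 TPM in Ctrl day 1. On day 3 it was at 535, 556 and 547 TPM in Fzd5KO and at 579.8, 572 and 553 TPM in Ctrl. Ctrl day 1 was above the other groups, whose neighbours overlapped: Fzd5KO day 1 with Ctrl day 3, and Fzd5KO day 3 with Ctrl day 3. Its day 1 change was −0.28 ± 0.030 (adjusted p = 0.00013), and it remained called under every scaling. The day 3 change was −0.057 ± 0.030 (adjusted p = 0.12), but median-of-ratios scaling gave 0.083 (adjusted p = 0.0162) and rescaled and epithelial scaling gave −0.15 (adjusted p = 0.000379) and −0.27 (adjusted p = 3.68e-06). Relative to Sis in the same library, Lct was at 0.222 ± 0.00287 in Fzd5KO day 3 and 0.648 ± 0.00729 in Ctrl day 3, against 0.375 ± 0.00757 in Fzd5KO day 1 and 0.339 ± 0.00211 in Ctrl day 1 (SD, n = 3).

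Treh, on chromosome 9 (44673233 to 44686305, plus strand), encodes trehalase, which splits the disaccharide of fungi and insects, and had the lowest level of the 9. It was at 178, 176 and 172 TPM in Fzd5KO day 1 and at 185, 191 and 177 TPM in Ctrl day 1, with overlap. Day 3 gave 217, 229.7 and 226 TPM in Fzd5KO and 162, 162 and 157 TPM in Ctrl, which were separate. The day 1 change was −0.069 ± 0.035 (adjusted p = 0.175), and on day 3 Treh rose 1.40-fold (log2 change 0.48, adjusted p = 3.62e-07), a smaller rise than that of the 7 other members that rose. The last bases of Treh overlap Phldb1 on the other strand, which averaged 12.2 TPM, and the use of strand in counting is not given here.

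Alpi, on chromosome 1 (87098002 to 87101606, minus strand), encodes intestinal alkaline phosphatase, which removes phosphate from dietary and bacterial molecules at the membrane. Its levels were 449, 452 and 440 TPM in Fzd5KO day 1 and 459, 478 and 439 TPM in Ctrl day 1, and these ranges overlapped. On day 3 they were 892, 942 and 900.03 TPM in Fzd5KO and 408, 418 and 387 TPM in Ctrl. The knockout libraries of day 3 were thus above all other libraries, by 2.25-fold over Ctrl day 3 (log2 change 1.17, adjusted p = 7.24e-10). The day 1 change was −0.037 ± 0.040 (adjusted p = 0.523) but median-of-ratios scaling gave 0.12 (adjusted p = 0.012). Akp3 and Alppl2, its neighbours in the phosphatase family, stood at 3.65 to 11.97 and 3.54 to 6.62 TPM over the 12 libraries.

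Anpep, on chromosome 7 (79821803 to 79861059, minus strand), encodes aminopeptidase N, which takes neutral residues from the amino end of peptides, and was the most abundant member in all 4 groups. It stood at 1959, 1937 and 1903 TPM in Fzd5KO day 1 and at 2412, 2472 and 2314 TPM in Ctrl day 1. Fzd5KO day 3 libraries had 3899, 4129 and 3882 TPM, and Ctrl day 3 libraries had 1466, 1495 and 1399 TPM. The 4 groups were separate and ordered as for Sis. Between genotypes the fold was 0.806 on day 1 (adjusted p = 0.000287, lost with quantile normalization at 0.779) and 2.73 on day 3 (log2 change 1.45, adjusted p = 1.1e-10). An unclassified transcript on the same strand inside the gene, Gm44974, averaged 44.7 TPM and may share reads with it. Myeloid cells also carry Anpep, and 7 myeloid markers summed to 22.8 to 26.5 TPM in Fzd5KO day 3 and 11.99 to 15.1 TPM in Ctrl day 3, which was not tested as a part of the Anpep values.

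Enpep, on chromosome 3 (129269175 to 129332720, minus strand), encodes aminopeptidase A, which removes acidic residues from the amino end. Its levels were 650.2, 645 and 621 TPM in Fzd5KO day 1 and 836, 857 and 815 TPM in Ctrl day 1. On day 3 they were 1073, 1137 and 1103 TPM in Fzd5KO and 644, 647 and 614 TPM in Ctrl. Fzd5KO day 1 and Ctrl day 3 shared the bottom of the order with overlapping ranges. It fell to 0.764-fold on day 1 (log2 change −0.39, adjusted p = 3.44e-05), a call kept under every scaling, and rose 1.74-fold on day 3 (0.80, adjusted p = 4.69e-09).

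The ratio of the 2 aminopeptidases moved too. Anpep was at 3.60 ± 0.0661 times Enpep in Fzd5KO day 3 and 2.29 ± 0.0203 times in Ctrl day 3, and at 3.03 ± 0.0338 times in Fzd5KO day 1 and 2.87 ± 0.0257 times in Ctrl day 1 (SD, n = 3). The largest and smallest ratios were thus those of the day 3 groups.

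Dpp4, on chromosome 2 (62330073 to 62412231, minus strand), encodes dipeptidyl peptidase IV, which cuts dipeptides ending in proline or alanine and also inactivates incretin hormones. It was at 305, 291 and 288 TPM in Fzd5KO day 1 and at 385, 412 and 385 TPM in Ctrl day 1. On day 3 it was at 413, 410.5 and 410.01 TPM in Fzd5KO and at 268, 253 and 230.4 TPM in Ctrl. Fzd5KO day 3 and Ctrl day 1 overlapped at the top. The log2 change was −0.42 on day 1 (adjusted p = 0.000296, kept under every scaling) and 0.72 on day 3 (adjusted p = 2.93e-07). Dpp4 is also carried by T cells, and the summed level of 7 T cell and intraepithelial lymphocyte markers was 81.5 to 96.1 TPM in Fzd5KO day 1 and 131 to 146 TPM in Ctrl day 1, then 116 to 129 TPM in Fzd5KO day 3 and 30.0 to 34.0 TPM in Ctrl day 3. Gzma made up most of that sum in each group. It averaged 65.4 TPM in Fzd5KO day 1 and 106 TPM in Ctrl day 1, then 95.2 TPM in Fzd5KO day 3 and 22.3 TPM in Ctrl day 3. Of the 6 lymphocyte markers that were tested 3 fell on day 1 and 6 rose on day 3. Of all tested genes 22.8% were called lower on day 1 and 24.3% higher on day 3. The part of these markers in the Dpp4 values was not tested. Against Ctrl day 1 in place of Ctrl day 3, 0 of the 6 tested markers rose and 2 fell in Fzd5KO day 3. Beside 25.2% of all tested genes called higher and 23.4% lower, that count is no result about these markers.

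Ace, on chromosome 11 (105967945 to 105989964, plus strand), encodes angiotensin-converting enzyme, which removes dipeptides from the carboxyl end and is known from endothelium as well as from enterocytes. It stood at 718, 717 and 686 TPM in Fzd5KO day 1 and at 784, 808 and 756 TPM in Ctrl day 1. Day 3 gave 1194, 1262 and 1208 TPM in Fzd5KO and 589, 602 and 557 TPM in Ctrl. All 4 groups were separate, in the order found for Sis. Its fold was 0.904 on day 1 (log2 change −0.15 ± 0.039, adjusted p = 0.0205) and 2.10 on day 3 (1.07, adjusted p = 1.24e-09). The day 1 call was lost without Fzd5KO day 1 replicate 3 (adjusted p = 0.0764), Ctrl day 1 replicate 1 (0.0504) or Ctrl day 1 replicate 2 (0.0786), and its direction turned with quantile (0.035) and median-of-ratios (0.014) scaling. The 6 endothelial markers summed to 1.79 to 3.18 TPM over the 12 libraries, as given above, and their part in the Ace values was not tested.

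**Figure D3:**
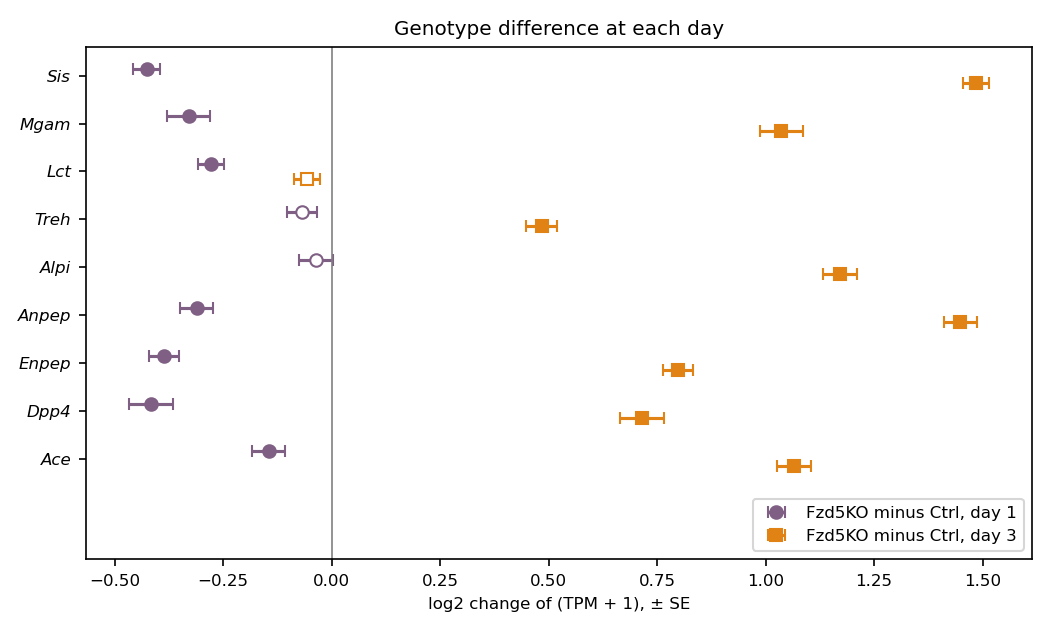
Log2 change ± SE of each hydrolase, Fzd5KO minus Ctrl, on day 1 (circles) and day 3 (squares), from limma over 12 libraries; filled symbols passed an adjusted p of 0.05 and open symbols did not. On day 1 values run from −0.43 (Sis) to −0.037 (Alpi) and on day 3 from −0.057 (Lct) to 1.48 (Sis); with other scalings Treh, Alpi and Ace turn on day 1 and Lct on day 3.

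By substrate, 3 of 4 carbohydrases, the phosphatase and 4 of 4 peptidases rose on day 3, and 3 of 4 carbohydrases and 4 of 4 peptidases fell on day 1, beside 24.3% of all tested genes called higher on day 3 and 22.8% called lower on day 1. With quantile normalization 1 of 4 carbohydrases and 2 of 4 peptidases fell on day 1. Exact two-sided permutation tests of 3 against 3 libraries gave p = 0.1, the smallest possible with 20 arrangements, for all members on day 3 but Lct (0.2), and on day 1 for all but Treh (0.2) and Alpi (0.5). In bulk samples, fewer cells of a type and less RNA per cell cannot be told apart.

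Against Ctrl day 1 in place of Ctrl day 3, an alternative chosen after the data were seen, the day 3 knockout values were higher by less. In Fzd5KO day 3 libraries 7 of 9 members were then called higher and Lct lower, with a median log2 change of 0.37 over the members and −0.026 over all tested genes, of which 25.2% were called higher and 23.4% lower. Alpi kept most of its difference (0.99), followed by Anpep (0.73) and Ace (0.64), while Sis had 0.24 and Dpp4 0.063 (adjusted p = 0.336). Lct had −0.37 (adjusted p = 1.59e-06). This comparison also crosses the days, so genotype and day cannot be told apart in it.

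Within Ctrl, all 9 hydrolases were lower on day 3 than on day 1, whereas 25.0% of all tested genes were called higher and 11.0% lower. Sis fell most, to 0.421-fold (log2 change −1.25, adjusted p = 4e-10), and 100 of the 14510 tested genes had a larger fall. Anpep (−0.72), Mgam (−0.66) and Dpp4 (−0.65) followed, and the falls of Treh (−0.20) and Alpi (−0.18) were the smallest of the 9. All 9 remained lower and called under each scaling. The whole-table split of 3633 higher and 1603 lower became 2226 and 2295 by quantile normalization and 1769 and 2558 by median-of-ratios scaling. It became 3165 and 1806 in rescaled values and 1529 and 2668 by epithelial scaling.

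Within Fzd5KO, 8 of 9 were higher on day 3 than on day 1 and Lct was lower, beside 34.4% of tested genes called higher and 10.5% lower. Anpep (log2 change 1.04, adjusted p = 3.91e-09) and Alpi (1.03, adjusted p = 6.22e-09) rose about equally, to 2.05-fold and 2.04-fold, ahead of Ace and Enpep (both 0.79), Mgam (0.70), Sis (0.66), Dpp4 (0.48) and Treh (0.35). With epithelial scaling Dpp4 had 0.11 (adjusted p = 0.0577) and Treh −0.018. Lct changed by −0.092 (adjusted p = 0.0267), a call lost without Fzd5KO day 1 replicate 1 (0.0606) or 2 (0.114), or Fzd5KO day 3 replicate 1 (0.0958) or 3 (0.0608). The split of 4985 higher and 1525 lower genes became 3040 and 2855 with quantile, 3518 and 2803 with median-of-ratios, 2750 and 3605 with rescaled and 1722 and 5678 with epithelial scaling. These time comparisons share their libraries with the genotype comparisons above.

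The genotype difference itself differed between the days for all 9 members: the day 3 log2 change minus the day 1 change was above 0 and called in each, at a median of 1.21 against 0.0092 over all tested genes. In that test 25.3% of tested genes were called higher and 19.1% lower, a split of 3665 and 2769. The split became 3661 and 2978 with median-of-ratios, 3132 and 3225 with quantile, 2653 and 4487 with rescaled and 2487 and 4654 with epithelial scaling. Sis had the largest value (1.91, adjusted p = 2.93e-10) and Lct the smallest (0.22, adjusted p = 0.00133). The value of Lct was 0.023 with rescaled values (adjusted p = 0.634) and −0.0052 with epithelial scaling (adjusted p = 0.917).

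Together the 9 genes held 1.33% ± 0.0451 of all TPM in Fzd5KO day 3 and 0.612% ± 0.0194 in Ctrl day 3, and 0.782% ± 0.0162 in Fzd5KO day 1 and 0.973% ± 0.0278 in Ctrl day 1 (SD, n = 3). Anpep made up 29.9% of this pool in Fzd5KO day 3 and 23.8% in Ctrl day 3, against 24.7% in both day 1 groups. Lct made up 4.12% in Fzd5KO day 3 and 9.29% in Ctrl day 3, against 7.44% in Fzd5KO day 1 and 7.27% in Ctrl day 1. The share of Sis was 18.5% in Fzd5KO day 3 and 14.3% in Ctrl day 3, against 19.8% in Fzd5KO day 1 and 21.4% in Ctrl day 1. The 4 carbohydrases together held 42.6% in Fzd5KO day 3 and 45.6% in Ctrl day 3, against 48.6% in Fzd5KO day 1 and 49.9% in Ctrl day 1.

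**Figure D4:**
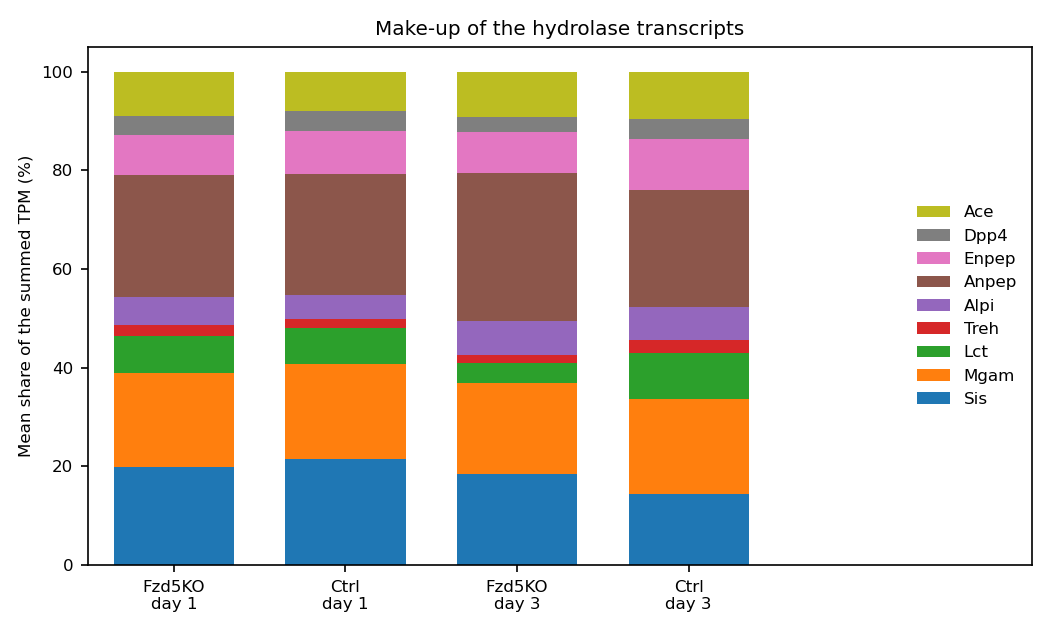
Mean share (%) of each hydrolase in the summed TPM of the 9 genes in each group of 3 libraries. Anpep is the largest share in all 4 groups, and the Lct share is smallest in Fzd5KO day 3 (4.12%) and largest in Ctrl day 3 (9.29%).

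Another 20 digestive ectoenzymes were listed, of which 19 were in the table and 17 were tested, since Naalad2 lay below the filter and Folh1 was listed at 0 in every library. On day 3, 14 rose and 2 fell, with a median log2 change of 0.75, beside 24.3% and 38.5% of all tested genes. On day 1, 2 rose and 11 fell, with a median of −0.28, beside 2.13% and 22.8% of all tested genes. Against Ctrl day 1 in place of Ctrl day 3, 12 rose and 3 fell in Fzd5KO day 3, with a median of 0.32. In that comparison Alppl2 (0.11, adjusted p = 0.368), Plb1 (−0.073, adjusted p = 0.23) and Xpnpep2 (−0.29, adjusted p = 0.0143) changed sign among the genes called against Ctrl day 3. Directions held under all 4 other scalings for the genes called, except Mep1b on day 1, which stood at 0.0020 after median-of-ratios scaling. The ectonucleotidases departed from the hydrolases by being higher on both days: Enpp3, which cleaves nucleotides outside the cell, changed by 0.65 on day 1 and 2.27 on day 3, and Nt5e, which turns AMP into adenosine, by 1.14 on day 1. On day 3 Nt5e averaged 51.75 TPM in Fzd5KO and 12.2 TPM in Ctrl (adjusted p = 4.79e-11). Enpp3 averaged 432 TPM in Fzd5KO day 1 and 274 TPM in Ctrl day 1, and 859.5 TPM in Fzd5KO day 3 and 177 TPM in Ctrl day 3.

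Several peptidases and lipid hydrolases of that list moved as the hydrolases did. The dipeptidase Dpep1 changed by −0.40 on day 1 (adjusted p = 9.1e-05) and 1.09 on day 3, and the sphingomyelinase Enpp7 by −0.48 and 1.15. On day 3 Ggt1, which cleaves glutathione, rose by 1.17, the meprin subunit Mep1b by 0.99 and the ceramidase Asah2 by 0.75. Mep1a, the other meprin subunit, fell on day 1 (−0.34) and had 0.028 on day 3 (adjusted p = 0.518), much as Lct did. Cpm (−0.65) and Alppl2 (−0.48), the 2 that fell on day 3, and Tmprss15 were named after their values were seen. Tmprss15, the enteropeptidase that activates trypsinogen, stood at 4.23, 4.22 and 4.39 TPM in Fzd5KO day 3 and at 0.44, 0.56 and 0.56 TPM in Ctrl day 3, without overlap. It was at 0.28 to 0.59 TPM in the day 1 libraries and passed the filter (1 TPM in 3 libraries) only through Fzd5KO day 3, so it had to differ there, and without it 13 of 16 rose. All 9 hydrolases passed the filter in more than 1 group.

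**Figure D5:**
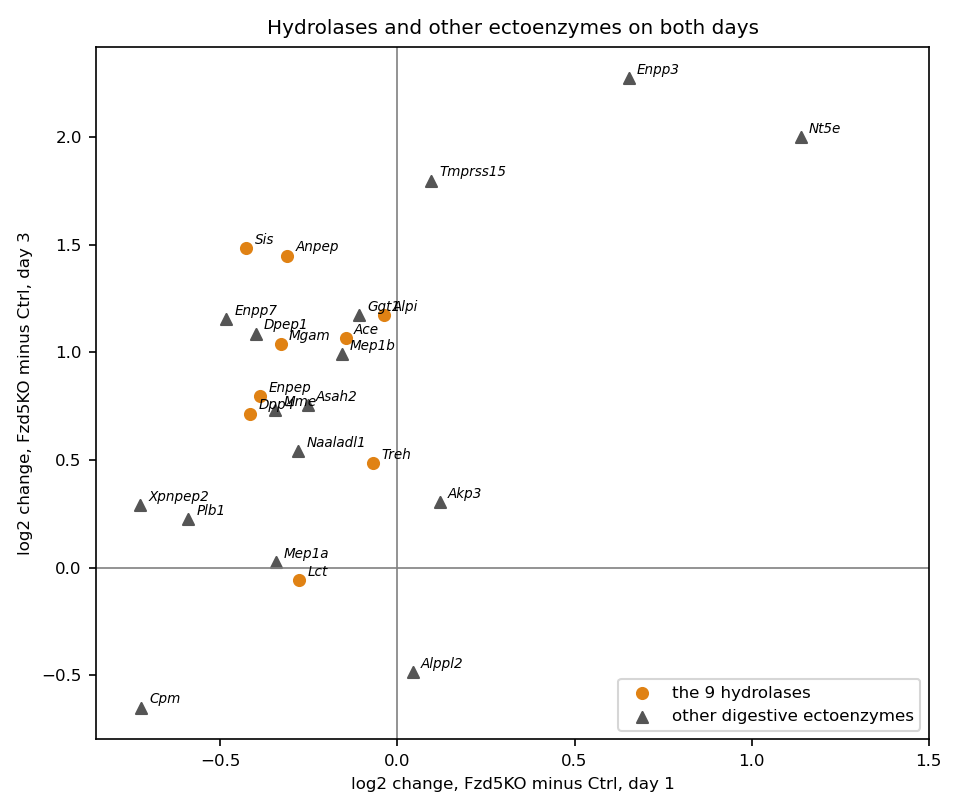
Log2 change, Fzd5KO minus Ctrl, on day 1 (horizontal) and day 3 (vertical) for the 9 hydrolases (circles) and other digestive ectoenzymes (triangles); lines mark 0. Most points lie in the upper left, lower on day 1 and higher on day 3, with Enpp3, Nt5e, Tmprss15 and Akp3 in the upper right, Mep1a near 0 and Lct, Cpm and Alppl2 below 0 on day 3; other scalings turn Treh, Alpi, Ace and Mep1b on day 1 and Lct on day 3.

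Of 13 transcription factors known to act on brush border genes, 5 rose, 6 fell and 2 did not pass the test on day 3. Of all tested genes 24.3% were called higher and 38.5% lower, so the list's division is no result about these factors. The direction of Hnf4a turned with quantile and epithelial scaling. Against Ctrl day 1 in place of Ctrl day 3, 8 rose and 0 fell, beside 25.2% and 23.4% of all tested genes. Klf4, a factor of differentiated epithelium, rose by 1.01 (adjusted p = 2.82e-09), with 85.2 TPM in Fzd5KO day 3 and 41.9 TPM in Ctrl day 3. Prdm1, which represses adult enterocyte genes in the suckling mouse, rose by 1.54 (adjusted p = 4.16e-07) at a low level, 3.93 TPM in Fzd5KO day 3 and 0.697 TPM in Ctrl day 3. Hnf4g (0.35) and Gata5 (0.29) rose, whereas the intestinal homeobox gene Cdx1 (−0.71), Klf5 (−0.25) and Elf3 (−0.20) fell. In that alternative Elf3 had 0.46 and Klf5 had 0.034. On day 1, Elf3 rose (0.24) and 4 fell, each by less than Sis: Gata4 (−0.25), Hnf4g (−0.18), Klf4 (−0.13) and Hnf4a (−0.13), and 0 of the 13 were called lower with quantile, median-of-ratios or rescaled values. Klf4 and Hnf4a turned with median-of-ratios scaling on day 1.

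Genes with profiles nearest to each member were found by the root mean square difference of log2 values, each centred on its mean, over the 12 libraries and 8914 genes. For Sis they were Slc6a19 (0.0521), Slc23a1 (0.0689) and Cyp2u1 (0.0707), for Mgam Clic5, Gk and Slc43a2 (0.0478 to 0.0614), and for Lct Cyp4v3, Arg2 and Nfkbiz (0.0348 to 0.0525). Treh was nearest to Arpc2, Cfl1 and Slc25a5 (0.0244 to 0.0299), and Alpi to Slc27a4, Surf4 and Apob (0.0347 to 0.0413). Anpep had Parp12, Clca4b and Gpat3 (0.0571 to 0.0809), Enpep had Lrrc8b, Epha2 and Neu1 (0.0295 to 0.0522), Dpp4 had Epb41l3, Osbpl3 and Asah2 (0.0473 to 0.0753), and Ace had Flvcr1, Tmem150b and Msmo1 (0.0427 to 0.0473). Among the members themselves, Ace and Mgam were the closest pair (0.107). The profiles hold 4 groups, so libraries of a group are not independent points.

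Markers of other epithelial cells moved with genotype beside the hydrolases. Of all tested genes, 38.5% were called lower on day 3 and 22.8% on day 1. The summed level of 7 crypt base and cycling genes was 147 TPM in Fzd5KO day 3 and 724 TPM in Ctrl day 3, and 206 TPM in Fzd5KO day 1 and 499.5 TPM in Ctrl day 1, with 7 of 7 lower on each day. Olfm4 weighed most in the Ctrl sums, with 24.5 TPM in Fzd5KO day 3 and 446 TPM in Ctrl day 3. On day 1 Olfm4 averaged 45.8 TPM in Fzd5KO and 284 TPM in Ctrl. The median log2 change of the 7 genes was −1.91 on day 3 and −0.87 on day 1. The summed level of 5 Paneth genes was 3051 TPM in Fzd5KO day 3 and 8508 TPM in Ctrl day 3, with 5 of 5 lower. On day 1 it was 8618 TPM in Fzd5KO and 9486 TPM in Ctrl, with 3 of 5 lower. With median-of-ratios scaling 2 Paneth genes were higher and 1 lower on day 1, beside 1236 and 928 genes of the whole table. The 6 goblet genes summed to 5293 TPM in Fzd5KO day 3 and 8200 TPM in Ctrl day 3, and to 5040 TPM in Fzd5KO day 1 and 8739 TPM in Ctrl day 1, with 6 of 6 lower on each day and a median log2 change of −0.57 on day 3 and −0.83 on day 1. Their part in the hydrolase values was not tested.

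Of 10 other enterocyte genes, 10 rose on day 3 with a median log2 change of 1.23, against 1.04 for the hydrolases. For this and the following lists, 24.3% of all tested genes were called higher and 38.5% lower on day 3. The shares were 2.13% and 22.8% on day 1. On day 1 the enterocyte list divided, 5 rose and 3 fell with a median of 0.10, whereas the hydrolases had 0 and 7 with a median of −0.31. Enterocyte genes summed to 25314 to 26043 TPM in Fzd5KO day 1 and 21505 to 22452 TPM in Ctrl day 1. The hydrolases summed to 7825 TPM in Fzd5KO day 1 and 9727 TPM in Ctrl day 1. Abundant genes weighed most in the enterocyte sum: Apoa4 averaged 6028 TPM in Fzd5KO day 1 and 4052 TPM in Ctrl day 1. Apoa1 (6677 and 5526 TPM) and Fabp1 (4368 and 3273 TPM) were higher too. Fabp2 (2794 and 3499 TPM), Slc5a1 (656 and 795 TPM) and Slc15a1 (367 and 489 TPM) were lower, as the hydrolases were. The sums therefore do not set enterocyte genes as a whole against the hydrolases. Of 8 markers of the upper villus, 5 rose and 1 fell on day 1 and 7 rose and 1 fell on day 3, with 0 lower on day 1 under the other 4 scalings. Apoa4, Nt5e and Klf4 among them were also counted in lists above. Of 7 markers of the lower villus, 3 rose and 1 fell on day 1 and 4 rose and 1 fell on day 3. Of 5 markers of the distal gut 3 rose on day 3, and they summed to 518 TPM in Fzd5KO day 3 and 192 TPM in Ctrl day 3. On day 1, 1 rose and 1 fell, and the sum was 338 TPM in Fzd5KO and 395 TPM in Ctrl, so Ctrl day 3 was the lowest of the 4 groups. Of 5 markers of the proximal gut 3 were tested, and 0 rose and 1 fell on each day, with sums of 70.7 TPM in Fzd5KO day 3 and 74.2 TPM in Ctrl day 3, and 58.3 TPM in Fzd5KO day 1 and 69.3 TPM in Ctrl day 1. The day 1 fall, in Gata4, was not called with quantile, median-of-ratios or rescaled values. Gata4 was also counted among the transcription factors. Beside the shares of all tested genes, 1 of 3 called lower is no result about these markers. The parts of position along the villus and along the gut in the hydrolase values were not tested.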

How the data were processed

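Per the labels' protocols, RNA of jejunal epithelial cells was purified on RNeasy columns and sequenced from TruSeq Stranded Total RNA libraries. STAR 2.7.3a, RSEM, bcl2fastq 2.18 and the build mm10 are listed, without roles, in the submitters' processing notes. The authors deposited TPM values for 55421 genes in 12 libraries, with 0 columns of any other sample, and 23594 genes were at 0 in all of them. TPM is scaled to a fixed total, so abundant RNAs can shift all other values, and depth and counting error are unknown. Coordinates are from GENCODE release vM21.

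The test was that of limma 3.58.1 (R 4.3.3) on log2(TPM + 1), with an intensity trend, 1 mean per group, 1 spread over all 12 libraries (8 residual degrees of freedom) and genes of at least 1 TPM in at least 3 libraries (14510). The contrasts were Fzd5KO minus Ctrl on each day, day 3 minus day 1 in each genotype, and the interaction. The procedure was tested on simulated data. All 9 members are named whatever their result. From the ectoenzyme and transcription factor lists, called genes were named in order of p, up to 8 per contrast, and for each member the 3 nearest genes of at least 5 TPM outside predicted and small RNA genes. Some genes that this rule names, and 1 planned promoter motif, are not reported here. The members and lists were chosen with earlier results of these data known. Other settings tried were a pseudocount of 0.1 or 5, a filter of 5 TPM or none, the scalings described, a replicate block, only the groups compared, and each library left out. Python 3.11.15 and matplotlib 3.10.9 drew the figures.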

Additional observations from a re-analysis of the deposited data

Results flagged for a closer look

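The difference between the genotypes was itself different on the 2 days for each of the 9 hydrolases, by limma's test of the interaction adjusted over all 14510 tested genes. The day 3 log2 change (Fzd5KO minus Ctrl) exceeded the day 1 change by 1.91 in Sis and 1.76 in Anpep (adjusted p = 2.93e-10 and 1.1e-09). It did so by 1.37 in Mgam, 1.21 in Ace, 1.21 in Alpi, 1.19 in Enpep and 1.13 in Dpp4, and by 0.55 in Treh. In Lct it did so by 0.22 (adjusted p = 0.00133). In 6 of the 9 (Sis, Mgam, Anpep, Enpep, Dpp4 and Ace) the day 3 and day 1 changes had opposite signs and both were called, but with quantile normalization the day 1 calls of Sis (adjusted p = 0.283), Mgam (0.777), Anpep (0.779) and Ace (0.46) were lost, and Ace lost its call under other alternatives too. The interaction uses Ctrl day 3, the group that stood apart in clock genes, and the part of that difference was not tested.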

How the results depend on the processing

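Among single members, no result of Ctrl over time changed its direction or call under any alternative, and on day 3 the 8 members called higher kept both under every alternative but one: Dpp4 had 0.063 against Ctrl day 1 (adjusted p = 0.336). Day 1 was the least stable. With quantile normalization 3 members (Lct, Dpp4 and Enpep) were called instead of 7, and 1771 genes of the table instead of 3622. Median-of-ratios scaling gave 2164 genes and rescaled values 1987, and without Ctrl day 1 replicate 2 there were 2229. Directions that turned on day 1 were those of Treh (0.033 with quantile, 0.091 with median-of-ratios and 0.036 with rescaled values), Alpi (0.12 and 0.068 with the last 2 scalings) and Ace (0.035 and 0.014 with the first 2). Lct turned on day 3 with median-of-ratios scaling (0.083), Treh in Fzd5KO over time (−0.018) and Lct in the interaction (−0.0052) with epithelial scaling. The genes used for epithelial scaling moved with genotype and day themselves, as given above. The cause of these turns was not tested.

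Leaving out 1 library at a time gave 6 to 7 called members and 2229 to 3674 genes on day 1, 8 to 8 members and 8382 to 9124 genes on day 3, 9 to 9 and 4142 to 5220 in Ctrl over time, 8 to 9 and 5777 to 6530 in Fzd5KO over time, and 9 to 9 and 5961 to 6207 in the interaction. Without a filter, the calls of Ace on day 1 (adjusted p = 0.0519) and of Lct in Fzd5KO over time (0.053) were lost. Same-numbered libraries did not deviate together (18 correlations from −0.069 to 0.093, 0 over 0.1). With 3 libraries per group these values cannot settle whether equal numbers share an animal or a run, and the labels do not say. A fit with the replicate number as a block called 7, 8, 9, 9 and 9 members in the 5 contrasts, as without the block. Depth is unknown, so no counting error can be given, but all 9 members lay far above the low values where it would weigh most.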
